A study of Mus musculus with 10 samples.

Results

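Transcripts of 10 regulators of presomitic and somite mesoderm were followed in mouse embryos at embryonic day 7.5 (E7.5) that were wild type (WT) or mutant for Axin1 and Axin2. The genes were given as a list of symbols (Msgn1, Mesp1, Mesp2, Ripply2, Tcf15, Meox1, Foxc1, Foxc2, Pcdh8 and Pcdh19) and matched exactly in the deposited table, where 10 of 10 were found among 20006 genes. RNA-seq was made from 5 whole WT embryos and 5 whole embryos with the genotype label Axin1;Axin2 mutant, whose library names carry DKO. AXIN1 and AXIN2 are the scaffold proteins on which β-catenin is tagged for degradation, so both restrain WNT signalling, and the series sets mutants of both genes against WT. The structure of the alleles, the mouse strain and the litter of each embryo were not stated, so p-values measure the spread between these 10 embryos. In whole embryos, fewer cells of a type and less RNA per cell cannot be told apart.

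Paraxial mesoderm leaves the primitive streak, passes through a presomitic state beside the midline and is then cut into somites, the blocks that give rise to vertebrae, skeletal muscle and dermis. WNT and FGF signals keep the posterior presomitic cells immature, the T-box factors T and Tbx6 switch on presomitic genes, and a NOTCH-driven clock sets the rhythm of segmentation. Among the 10 regulators, Msgn1 is a basic helix-loop-helix (bHLH) factor of posterior presomitic mesoderm. Mesp1 and Mesp2 are neighbouring bHLH genes, the first a factor of early cardiac and cranial mesoderm and the second a factor that sets segment borders. Ripply2 is a repressor that ends the presomitic program at the forming border. Tcf15 (paraxis) and Meox1 act in epithelial somites and their early derivatives. Foxc1 and Foxc2 are forkhead factors of paraxial mesoderm, and Pcdh8 and Pcdh19 are protocadherins, cell adhesion proteins of the paraxial mesoderm and other tissues.

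The promoters of 4 presomitic genes are shown because the TCF/LEF partners of β-catenin and the T-box proteins act upstream of the presomitic program. These genes fell, as did Foxc1, Pcdh8 and Pcdh19, whose promoters are not shown. Promoters run from 250 bases before to 50 bases after the RefSeq start (build GRCm38.p6), which 7 of the 10 genes had in the table used, and are written 5′ to 3′ along the gene. Capitals mark matches, on either strand, to the TCF/LEF cores CTTTGA and CTTTGT and to the T-box core GGTGTG. No marked matches overlapped. Msgn1 lies at chr12:11208899-11209198 (minus strand), Mesp1 at chr7:79793541-79793840 (minus strand), Mesp2 at chr7:79810477-79810776 (plus strand) and Ripply2 at chr9:87015287-87015586 (plus strand).
Msgn1: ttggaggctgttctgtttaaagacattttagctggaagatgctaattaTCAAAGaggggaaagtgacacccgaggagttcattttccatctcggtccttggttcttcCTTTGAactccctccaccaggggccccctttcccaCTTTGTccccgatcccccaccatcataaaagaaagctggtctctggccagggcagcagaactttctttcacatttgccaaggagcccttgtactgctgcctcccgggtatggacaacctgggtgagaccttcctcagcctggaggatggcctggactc
Mesp1: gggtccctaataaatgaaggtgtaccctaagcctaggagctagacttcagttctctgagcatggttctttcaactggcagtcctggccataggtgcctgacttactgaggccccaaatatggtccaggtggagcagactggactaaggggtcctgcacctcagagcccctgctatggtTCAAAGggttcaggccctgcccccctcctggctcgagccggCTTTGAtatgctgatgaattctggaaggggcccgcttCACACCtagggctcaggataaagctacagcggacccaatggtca
Mesp2: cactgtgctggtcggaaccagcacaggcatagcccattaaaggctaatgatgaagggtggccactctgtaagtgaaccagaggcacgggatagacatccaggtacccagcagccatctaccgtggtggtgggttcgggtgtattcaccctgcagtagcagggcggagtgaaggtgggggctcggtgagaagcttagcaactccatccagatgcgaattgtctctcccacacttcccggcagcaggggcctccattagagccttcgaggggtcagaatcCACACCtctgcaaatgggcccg
Ripply2: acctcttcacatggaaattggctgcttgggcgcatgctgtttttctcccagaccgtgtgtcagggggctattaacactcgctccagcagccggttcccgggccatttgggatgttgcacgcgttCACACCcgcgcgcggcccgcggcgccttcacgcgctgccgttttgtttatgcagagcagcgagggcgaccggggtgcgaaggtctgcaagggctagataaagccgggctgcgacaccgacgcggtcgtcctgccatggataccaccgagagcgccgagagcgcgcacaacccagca

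A TCF/LEF core was found in 3 of the 7 promoters (Msgn1, Mesp1 and Pcdh8), against 31.2% of 32851 promoters of the same length. The T-box core was found in 3 of 7 (Mesp1, Mesp2 and Ripply2), against 19.0% of all promoters. Foxc1 and Pcdh19, which also fell, held no match to any of these cores. Msgn1 held 2 CTTTGA matches and 1 CTTTGT match, and Mesp1 held 2 CTTTGA matches, the nearer one at bases -31 to -26 from the start, beside a T-box core at bases 7 to 12 after it. The matches describe these letters only and were not tested as binding sites.

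Libraries held 20744547 to 28505209 reads over the listed genes, and values below are scaled counts, recovered reads over the authors' size factor of each embryo (0.881 to 1.20). The kit adds no molecular identifiers, and intervals or floors below cover counting error only. Axin1, the first targeted gene, measured 3314 to 3843 scaled counts in WT, 820 to 1319 in mutants 1, 2, 3 and 5, and 2336 in the library labelled mutant 4. Axin2, itself a WNT target, measured 395 to 485 in WT and 349 to 603 in mutants (-0.01, limma adjusted p = 0.981). Since the altered exons are not known here, reads over the whole gene check the labels only in part. The library labelled mutant 4 stood apart in further ways: 10 trophoblast and extra-embryonic ectoderm markers summed to 50089 in it, against 10918 to 20083 in WT and 13418 to 17442 in the other mutants. It also held both Xist (1050.1), the RNA of the inactive X chromosome, and the Y-linked Ddx3y (718). The 4 embryos with Ddx3y at 1.01 or below had Xist at 1268 to 3597, and the other 5, with Ddx3y at 890 to 1947, had Xist at 17.2 to 87.8. Of the 5 genes in the list of Xist and Y-linked genes, 0 passed between genotypes with limma, edgeR or DESeq2, and 0 had an unadjusted p under 0.05 with limma. Fold changes of the regulators are therefore given with and without that library, and the part of these values in the results was not tested.

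Of the 10 regulators, 9 fell in the mutants and 0 rose, against 13.8% of 15429 tested genes that fell and 25.1% that were called in either direction (limma with Benjamini-Hochberg adjustment over all tested genes, threshold 0.05). With limma the falls were deepest for the adhesion gene Pcdh8 (log2 fold change -6.50), the forkhead gene Foxc2 (-5.82) and the segment border gene Mesp2 (-5.21, with 0 reads in 3 mutants), and shallowest for the posterior presomitic gene Msgn1 (-1.93) and the somite gene Tcf15 (-1.88). Limma fold changes here and below are differences of mean log2(scaled count + 1) values, not ratios of the mean scaled counts printed beside some of them. With DESeq2 the deepest were Pcdh8 (-4.31), Mesp1 (-4.12) and Pcdh19 (-3.85). The median regulator was at -4.55, beside 0.01 for all tested genes. Meox1 was the exception, at 0.01 (adjusted p = 0.996). All 10 passed the minimum mean of 10 scaled counts over the embryos, Ripply2 through its WT level alone (mutant mean 5.24). Without the library labelled mutant 4, 9 of 10 again fell, against 16.0% of genes, and the median regulator was at -5.17. The count tests on the recovered reads called 6 (edgeR) and 7 (DESeq2) of the 10 with all embryos. Without that library they called 9 each, but these 2 fits were chosen after its values were seen and are no independent support.

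**Figure D1:**
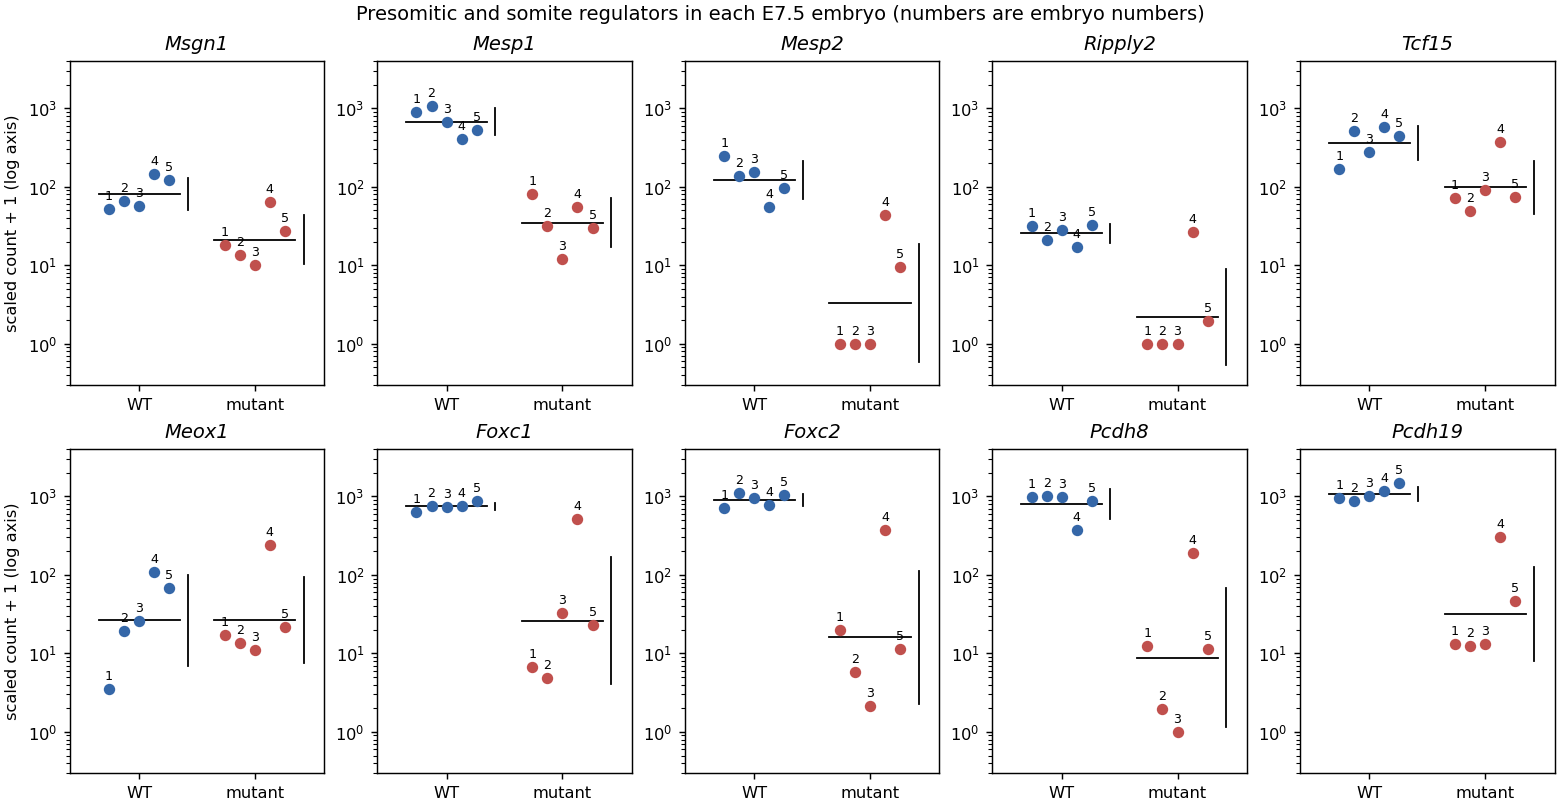
Scaled count plus 1 (log axis) of each regulator in every embryo, WT in blue and mutants in red, numbered by embryo, with the mean of the log2 values (line) and ± 1 SD of them (bar at the right). Mutants 1, 2, 3 and 5 lie below every WT embryo in 9 of 10 panels, Meox1 being the exception, and embryo 4 is the highest mutant in 9 of 10, Mesp1 being the exception.

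The groups did not overlap for 6 regulators, Mesp1, Mesp2, Foxc1, Foxc2, Pcdh8 and Pcdh19, with every mutant below every WT embryo, as was the case for 9.97% of tested genes. No regulator had every mutant above every WT embryo, against 7.14% of genes. For Msgn1, Ripply2 and Tcf15 the library labelled mutant 4 reached into the WT range. Mutants 1, 2, 3 and 5 lay below every WT embryo for 9 of 10 regulators, against 14.4% of genes, and the library labelled mutant 4 for 6 of 10, against 24.8%. Expressed as a share of the WT mean, the median regulator stood at 1.70% in mutant 1, 0.784% in mutant 2, 1.34% in mutant 3 and 4.06% in mutant 5. In the library labelled mutant 4 it stood at 55.2%, with single regulators between 7.62% (Mesp1) and 546% (Meox1). That library lay between the other mutants and all WT embryos for 5 regulators (Mesp2, Foxc1, Foxc2, Pcdh8 and Pcdh19), inside the WT range for Msgn1, Ripply2 and Tcf15, above it for Meox1 and within the range of the other mutants for Mesp1.

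Msgn1 (chromosome 12, 11208360 to 11208972, minus strand, mm10) measured 51.0, 65.4, 55.6, 143 and 121 scaled counts in WT 1 to 5. It measured 17.0, 12.4, 8.96 and 26.6 in mutants 1, 2, 3 and 5, and 63.7 in the library labelled mutant 4. The 4 former mutants lay below all WT embryos, and the library labelled mutant 4 lay above WT 1 and WT 3. The mean went from 87.3 ± 42.1 to 25.7 ± 22.2 (SD, n = 5). With limma, the difference of mean log2 values was -1.93 (SE 0.50, adjusted p = 0.0148, and -2.33 without the library labelled mutant 4). Msgn1 is itself a target of WNT signalling in posterior mesoderm, so its level was set beside T, the streak T-box factor, which measured 1821 to 3026 in WT and 582 to 1031 in mutants (-1.62, SE 0.19).

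Mesp1 and Mesp2 lie 16939 bases apart on chromosome 7 (Mesp1 at 79792241 to 79793788 on the minus strand, Mesp2 at 79810727 to 79813439 on the plus strand). Mesp1 measured 904, 1085, 664, 404 and 526 in WT 1 to 5. It measured 81.2, 30.6, 11.2 and 28.5 in mutants 1, 2, 3 and 5 and 54.6 in the library labelled mutant 4. Each mutant was thus far below the lowest WT embryo, and here the library labelled mutant 4 was not the highest mutant. The mean went from 717 ± 277 to 41.2 ± 27.2 (SD, n = 5), 5.75% of WT (-4.27, SE 0.45, adjusted p = 8.49e-05; -4.44 without the library labelled mutant 4).

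Mesp2 measured 249, 136, 152, 54.6 and 96.7 in WT 1 to 5. It had 0 reads in mutants 1, 2 and 3, where 3 reads, the limit that a count of 0 allows, correspond to 2.83, 2.87 and 3.36 scaled counts. Mutant 5 had 8.55 and the library labelled mutant 4 had 42.4. No mutant reached the lowest WT value (-5.21, SE 0.98, adjusted p = 0.00295). The fold change moved from -3.75 with either count test to -6.13 without the library labelled mutant 4.

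Ripply2 (chromosome 9, 87015537 to 87019917, plus strand), which MESP2 activates at the segment border, measured 30.9, 20.1, 27.3, 16.2 and 31.9 in WT 1 to 5. It had 0 reads in mutants 1, 2 and 3 and 1 read in mutant 5, whereas the library labelled mutant 4 measured 25.3, inside the WT range. Ripply2 fell with limma (-3.54, SE 0.83, adjusted p = 0.00957), but edgeR (-2.26, adjusted p = 0.131) and DESeq2 (-2.27, adjusted p = 0.148) did not call it. Over mutants 1, 2, 3 and 5 together it had 1 read against 131 in WT, a ratio of 104 per scaled library (95% exact counting interval 18.3 to 4119), and limma without the library labelled mutant 4 gave -4.43 (adjusted p = 3.5e-05). Mesp2 and Ripply2 had 0 reads in the same 3 embryos.

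Tcf15 (chromosome 2, 152143561 to 152149097, plus strand) measured 168, 510.3, 278, 573 and 442 in WT 1 to 5. It measured 70.8, 48.8, 90.7 and 73.1 in mutants 1, 2, 3 and 5, and 376 in the library labelled mutant 4, which exceeded WT 1 and WT 3. The mean went from 394 ± 168 to 132 ± 137 (SD, n = 5; -1.88, SE 0.50, adjusted p = 0.0176). The call was lost with edgeR (-1.59, adjusted p = 0.0556) and the fold change was -2.36 without the library labelled mutant 4. Mutants 1, 2, 3 and 5 kept 18.0% of the WT mean, close to the 18.6% of Msgn1 and above the 0.67% to 5.29% of the 7 other regulators that fell.

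Meox1 (chromosome 11, 101877510 to 101894374, minus strand), a homeobox gene of the somite, was the most variable regulator among WT embryos, at 2.51, 18.1, 25.0, 107 and 67.6 in WT 1 to 5. It measured 16.0, 12.4, 10.1 and 20.9 in mutants 1, 2, 3 and 5, all above WT 1 and within the WT range. In the library labelled mutant 4 it measured 241, more than in any WT embryo. The difference between genotypes did not pass the test with that library (0.01, SE 0.98, adjusted p = 0.996) or without it (-0.78, SE 0.82, adjusted p = 0.505). The WT embryos alone spanned 42.7-fold.

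Foxc1 (chromosome 13, 31806633 to 31812476, plus strand) was the steadiest regulator in WT, at 636, 754, 737, 749 and 864 in WT 1 to 5 (coefficient of variation 10.8%). It measured 5.66, 3.83, 31.4 and 21.8 in mutants 1, 2, 3 and 5, and 519 in the library labelled mutant 4, which still lay below all WT embryos. Foxc1 fell with limma (-4.83, SE 0.98, adjusted p = 0.0043), but not past the threshold with edgeR (-2.69, adjusted p = 0.0759) or DESeq2 (-2.68, adjusted p = 0.0592), and it measured -5.91 without the library labelled mutant 4 (adjusted p = 7.27e-06). Its paralogue Foxc2 (chromosome 8, 121116171 to 121118895, plus strand) measured 712, 1091, 947, 779.9 and 1027 in WT. It measured 18.9, 4.79, 1.12 and 10.4 in mutants 1, 2, 3 and 5, and 373 in the library labelled mutant 4. No mutant reached the WT range, and the fall of -5.82 (SE 1.03, adjusted p = 0.00205; -6.95 without the library labelled mutant 4) was called by edgeR and DESeq2 as well, at -3.49 and -3.48.

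Pcdh8 (chromosome 14, 79766775 to 79771312, minus strand), also called PAPC, measured 980.5, 1026, 992, 371 and 871 in WT 1 to 5. It measured 11.3, 0.957, 0 and 10.4 in mutants 1, 2, 3 and 5, and 190.0 in the library labelled mutant 4. WT 4 stood below the other WT embryos and still had more than each mutant (-6.50, SE 1.1, adjusted p = 0.00158; -7.61 without the library labelled mutant 4 and -4.31 with DESeq2). Pcdh19 (chromosome X, 133582860 to 133688987, minus strand) measured 952, 884, 1017, 1168 and 1491 in WT. It measured 12.3, 11.5, 12.3 and 45.6 in mutants 1, 2, 3 and 5, and 301 in the library labelled mutant 4, with no overlap between the groups (-5.10, SE 0.74, adjusted p = 0.000633; -5.92 without the library labelled mutant 4 and -3.85 with DESeq2). Mutant 3, with Xist at 3597, and mutants 1, 2 and 5, with Y-linked reads, were alike far below WT for this X-linked gene. Exons of Pcdh8 and Pcdh19 overlap the antisense genes Gm9748 and Gm26851, and the library chemistry does not record strand.

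**Figure D2:**
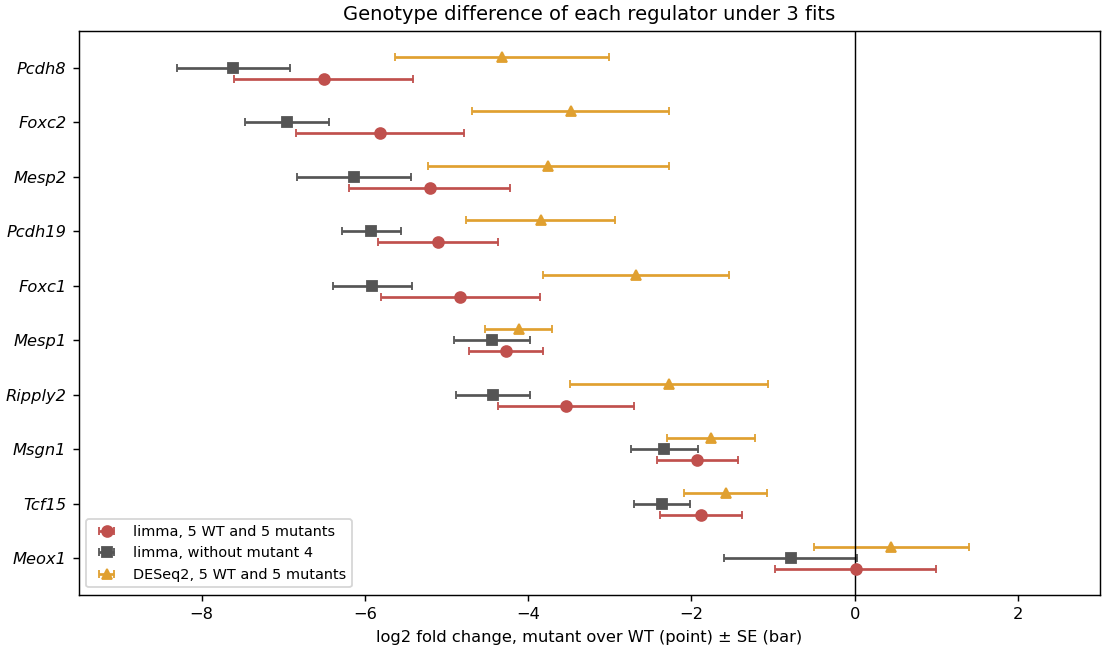
Log2 fold change, mutant over WT, of each regulator (point) with its standard error (bar) by limma with all embryos (red), limma without the library labelled mutant 4 (grey) and DESeq2 with all embryos (orange). Mesp1 moved least among the fits (-4.44 to -4.12), while Foxc1 ran from -5.91 to -2.68, and Meox1 lay between 0.01 (limma) and 0.45 (DESeq2) with all embryos.

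Among WT embryos the order of the embryos differed between regulators. WT 4 had the lowest Mesp1, Mesp2, Ripply2 and Pcdh8 and the highest Msgn1, Tcf15 and Meox1. WT 1 had the highest Mesp2 and the lowest Msgn1, Tcf15, Meox1, Foxc1 and Foxc2. Foxc1, Foxc2 and Pcdh19 varied by 1.36-fold, 1.53-fold and 1.69-fold between the lowest and highest WT embryo, against 4.57-fold for Mesp2. Aldh1a2, the retinoic acid synthesis enzyme of trunk mesoderm, which was chosen here after its values were seen, ranked the WT embryos in the same order as Meox1, at 98.6, 438, 856, 2860.1 and 1985 in WT 1 to 5. In mutants 1, 2, 3 and 5 Aldh1a2 measured 60.3 to 249.8 and in the library labelled mutant 4 it measured 1808 (limma adjusted p = 0.244). The library labelled mutant 4 thus combined Meox1 and Aldh1a2 levels at or above the middle of the WT range with a Mesp1 level of 7.62% of the WT mean.

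Per kilobase of exon, the WT level was highest for Mesp1 (562 ± 217 scaled counts per kb), Tcf15 (402 ± 171) and Foxc2 (334 ± 59.1), whose spreads overlapped. Pcdh8 (187 ± 60.2), Msgn1 (142 ± 68.7), Foxc1 (128 ± 13.8) and Pcdh19 (105 ± 23.1) followed. Neighbours in this order lay within 1 SD of each other's range except Foxc2 and Pcdh8. Mesp2 (70.8 ± 37.5), Ripply2 (34.4 ± 9.36) and Meox1 (19.8 ± 19.2) were lowest (SD, n = 5 for each level). The low levels of Ripply2 and Meox1 rest on 131 and 221 reads summed over the 5 WT embryos, against 3704 for Mesp1.

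Related regulators were then compared within each embryo, as the difference of their log2(scaled count + 1) values, by an exact two-sided permutation test over all assignments of embryos to genotypes, with p-values adjusted over the 4 pairs. None of the 4 pairs passed. Mesp1 exceeded Mesp2 by 2.45 ± 0.48 in WT and 3.39 ± 2.44 in mutants (SD, n = 5; difference 0.94, exact p = 0.421, adjusted p = 0.561). Foxc1 minus Foxc2 went from -0.27 ± 0.18 to 0.71 ± 2.04 (exact p = 0.389, adjusted p = 0.561), with mutant 3 at 3.93 and mutant 1 at -1.58. The difference between the forkhead paralogues thus lay between -0.53 and -0.06 in WT embryos and took both signs in mutants. The mutant values rest on few reads: Foxc2 had 1 in mutant 3, and Foxc1 had 6 in mutant 1 and 4 in mutant 2. Mesp2 had 0 reads in mutants 1, 2 and 3, so the added count of 1 set its value there.

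Pcdh8 minus Pcdh19 went from -0.44 ± 0.78 to -1.84 ± 1.48 (SD, n = 5; exact p = 0.0873, adjusted p = 0.349; exact p = 0.0635 without the library labelled mutant 4). Pcdh8 had 1 read in mutant 2 and 0 in mutant 3. Msgn1 minus Tcf15 was -2.16 ± 0.49 in WT and -2.21 ± 0.68 in mutants (exact p = 0.905, adjusted p = 0.905). Values of this pair overlapped almost wholly between genotypes, from -2.94 to -1.70 in WT and from -3.20 to -1.43 in mutants. A p past the threshold was possible in this design (the smallest is 0.00794), but the spread among mutants of 0.68 to 2.44 limits what these 4 tests can show.

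**Figure D3:**
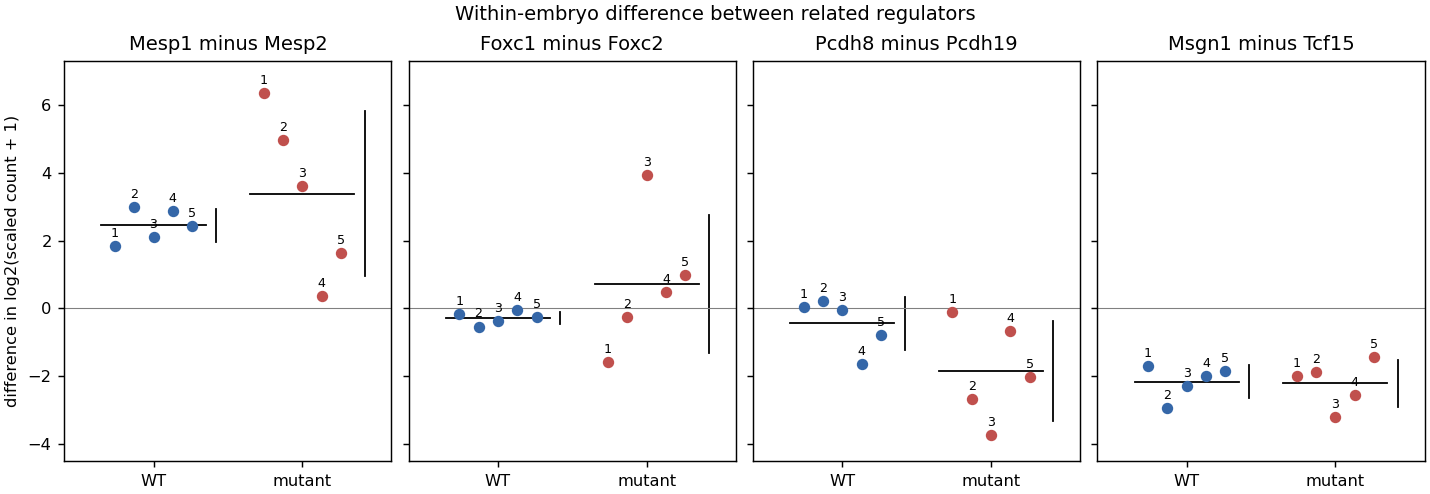
Difference in log2(scaled count + 1) between both genes of 4 pairs in each embryo, WT in blue and mutants in red, numbered by embryo, with the group mean (line) and ± 1 SD (bar). Mutants spread more widely than WT embryos for Mesp1 minus Mesp2 (SD 2.44 against 0.48) and Foxc1 minus Foxc2 (2.04 against 0.18). These mutant values rest on few reads, with 0 for Mesp2 in mutants 1, 2 and 3 and 1 for Foxc2 in mutant 3.

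The presomitic clock and its NOTCH parts moved unevenly. Of 15 genes in that list, 7 fell and 2 rose, against 13.8% and 11.4% of all genes, with a median log2 fold change of -0.53, and the counts were the same without the library labelled mutant 4. The NOTCH ligands Dll3 (from 2149 ± 277 to 93.0 ± 149; -5.55, SE 0.62, and -6.30 without the library labelled mutant 4) and Dll1 (-3.64, SE 0.42) fell, as did Tbx6 (from 844 ± 263 to 87.0 ± 128; -4.17, SE 0.65, and -4.87 without that library; SD, n = 5). Notch1, the clock gene Hes7, Hes5 and Lfng made up the 7. The genes that rose were Nkd1, a WNT feedback inhibitor that cycles with the clock (from 2157 ± 318 to 12523 ± 4646; 2.44, SE 0.26), and the NOTCH effector Hes1 (0.49, adjusted p = 0.0421), whose call was lost when any single embryo but WT 2 or the library labelled mutant 4 was left out (0.40 to 0.51). Rbpj, the DNA-binding partner of NOTCH, was not past the threshold (0.35).

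Of 11 tested genes of somite formation, polarity and derivatives, 4 fell and 1 rose (median -0.64), against 13.8% and 11.4% of all genes. The counts were the same without the library labelled mutant 4, and 7 fell when no minimum mean was set. Cer1, a secreted NODAL and BMP antagonist also transcribed in nascent somites (-6.04, SE 0.80), and the ephrin Efnb2 (-0.70, SE 0.14) were among those that fell, and the sulphate donor enzyme Papss2 rose (1.85, SE 0.31). Another 6 listed genes, Uncx, Pax1, Pax7, Meox2, Foxd3 and Nkx3-2, had a mean under 10 scaled counts over all embryos and were not tested. Myf5 and Tbx22 were not among the listed genes.

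Signals that pattern the presomitic mesoderm went both ways: 7 of 16 rose and 3 fell (median 0.45), against 11.4% and 13.8% of all genes. Wnt5a (1.25, SE 0.18), Wnt5b (1.22, SE 0.22) and Fgf18 (from 19.9 ± 6.32 to 163 ± 87.5; 2.75, SE 0.49; SD, n = 5) rose. Fgf8, Fgf17, the FGF antagonist Spry4 and the retinoic acid degrading enzyme Cyp26a1 completed the genes that rose. Wnt3a, which maintains presomitic progenitors (from 579 ± 336 to 130 ± 115; -2.51, SE 0.64), Fgf4 (-2.75, SE 0.67) and the WNT enhancer Rspo3 (-1.22, SE 0.18) fell. The counts were 10 and 3 without the library labelled mutant 4, where 16.0% of all genes fell.

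Of 20 streak and nascent mesoderm genes, 8 fell and 5 rose (median -0.20), against 13.8% and 11.4% of all genes. Without the library labelled mutant 4, 7 fell and 6 rose. The NODAL inhibitor Lefty2 (from 1719 ± 1480 to 9.31 ± 7.56; -7.30, SE 0.57), the apelin receptor Aplnr (-1.56, SE 0.16) and T fell. The caudal gene Cdx4 rose (from 200.3 ± 86.7 to 3555 ± 1581; 4.14, SE 0.40), as did Mixl1, Evx1, Fgf8 and Cdx1 (2.60, but 1.89 and adjusted p = 0.0615 with edgeR). In lateral plate, cardiac and intermediate mesoderm, 5 of 16 rose and 1 fell (median 0.33), against the same 11.4% and 13.8%. Prrx1 (2.66, SE 0.38), Osr1 (1.78, SE 0.32), Twist1 (1.05, SE 0.18) and Bmp4 (1.03, SE 0.19) were among those that rose, and Smarcd3, a chromatin gene of early cardiac progenitors, fell (-1.80, SE 0.42). Without the library labelled mutant 4 these counts were 7 and 5, and 16.0% of all genes fell.

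Genes of the allantois and extra-embryonic mesoderm went the other way: 8 of 13 rose and 0 fell with limma (median 2.14). Among all genes 11.4% rose and 13.8% fell. At an unadjusted p under 0.05 with limma, 0 genes of the list were lower as well. Without the library labelled mutant 4, 9 rose and 1 fell. Hoxa11 (from 32.5 ± 6.40 to 672 ± 313; 4.24, SE 0.28), Hoxc10 (5.78, SE 0.51), Hoxa10 (3.50, SE 0.35) and the T-box gene Tbx4 (from 201 ± 99.6 to 2452 ± 793; 3.67, SE 0.37; SD, n = 5) rose. The summed level of this list was 4945 to 6468 in WT and 12290.4 to 19327 in mutants, with 12293.6 in the library labelled mutant 4. In this sum that library lay at the low end of the other mutants' range, whereas it was above all other mutants for 9 of the 10 regulators. Single genes of the list differed. That library was the lowest mutant for Hoxa10, Hoxa11, Hoxa13, Bmp4, Tlx2 and Spin2c, and the highest for Tbx2, Ahnak, Vcam1 and Postn. For Tbx4, Pitx1 and Hoxc10 it lay within the range of the other mutants.

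**Figure D4:**
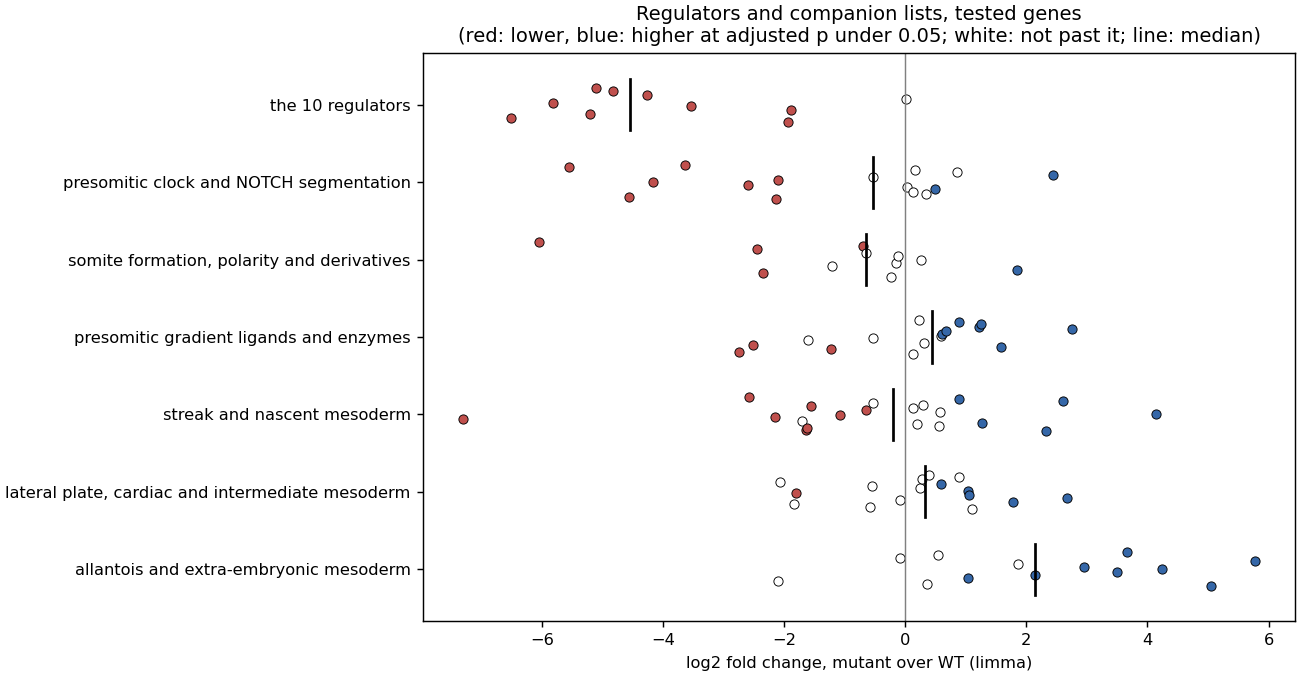
Log2 fold change, mutant over WT (limma), of the 10 regulators and of the tested genes of 6 companion lists, each point a gene, filled red if it fell and blue if it rose at an adjusted p under 0.05, with the median of each row as a line. Medians run from -4.55 for the regulators to 2.14 for allantois genes.

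Within their own gene families the regulators were set beside other members. Of 16 tested forkhead genes, 10 fell and 1 rose (median -0.85), Foxc1 and Foxc2 among those that fell. Without the library labelled mutant 4, 9 of the 16 fell and 3 rose, Foxf1 (0.60) and Foxa3 (0.41) being added to Foxf2. With all embryos, 8 of the 14 outside the regulators fell and 1 rose, against 13.8% and 11.4% of all genes. Foxj1 of ciliated node cells (-4.49, SE 0.37), Foxh1, a NODAL cofactor (-1.56, SE 0.21), Foxb1 (-7.84, SE 1.22) and Foxd4 (-5.29, SE 0.85) fell, and Foxf2 rose (1.15, SE 0.26). DESeq2 did not call Foxb1 (-4.36, adjusted p = 0.116) or Foxd4 (-3.84, adjusted p = 0.0706), which had 0 reads in mutants 1, 2, 3 and 5. Of 8 tested non-clustered protocadherins, Pcdh8, Pcdh19 and Pcdh9 (-3.58, SE 0.59, from 19.3 ± 4.52 to 1.31 ± 2.43) fell. Outside the regulators, 1 of 6 fell and 2 rose. Pcdh11x (1.98, SE 0.36) and the endothelial Pcdh12 (2.80, SE 0.86, adjusted p = 0.0319) rose, Pcdh12 with 561 scaled counts in the library labelled mutant 4 and 11.4 to 45.9 in the other mutants. Without that library Pcdh12 measured 1.94. The call for Pcdh12 was lost without WT 1, WT 2 or mutant 3 (adjusted p = 0.0631, 0.0731 and 0.0585).

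Of 17 tested bHLH genes of mesoderm, 6 fell and 2 rose (median -0.31). Without the library labelled mutant 4, 8 fell and 2 rose. With all embryos, 2 of the 13 outside the regulators fell and 2 rose, beside 13.8% and 11.4% of all genes. Besides Mesp1, Mesp2, Msgn1 and Tcf15, the genes that fell were Tcf21 and the E protein gene Tcf3, a common dimer partner of tissue bHLH factors (from 9433 ± 1284 to 5949 ± 848; -0.67, SE 0.12). Twist2 (from 26.8 ± 9.48 to 326 ± 86.6; 3.57, SE 0.28; SD, n = 5) and Twist1 rose.

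The 5 genes outside the list whose levels over the 10 embryos were most like the mean standardised profile of the regulators, among 12047 genes with a mean of at least 50 scaled counts, were Rbm24 (Pearson r = 0.992), St8sia3 (0.989), Tbx6 (0.986), Ppp1r1a (0.985) and Crmp1 (0.985). These values describe the likeness only, since the embryos share the split by genotype. Rbm24, an RNA-binding protein gene of heart and skeletal muscle, measured 430 to 542 in WT, 12.3 to 40.8 in mutants 1, 2, 3 and 5, and 292 in the library labelled mutant 4. Tbx6 measured 589 to 1142, 13.4 to 45.3 and 315 in the same order. Levels in the library labelled mutant 4 entered the measure by which these genes were chosen.

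Markers of other tissues in the whole embryos were measured beside the regulators. Among all genes 11.4% rose and 13.8% fell with limma, to be read beside the count of each list here. Of 10 visceral endoderm genes 2 rose and 0 fell with limma, Cubn (0.60, adjusted p = 0.0255) and Hnf4a (0.56, adjusted p = 0.03). Both calls were lost when single embryos were left out, 6 and 7 times of 10 (0.53 to 0.58 and 0.48 to 0.56). Without the library labelled mutant 4 both were kept and 4 rose, with Apob (0.75) and Ttr (0.58). Summed levels of the visceral endoderm list were 102077 to 143101 in WT. The library labelled mutant 4 summed to 86893, below every WT embryo, and the other mutants to 148574 to 156295, above every WT embryo. Of 10 trophoblast markers 0 passed in either direction with limma or edgeR, 1 rose with DESeq2 and 1 was higher at an unadjusted p under 0.05 with limma. Without the library labelled mutant 4, Cdx2 rose (0.81, limma adjusted p = 0.00425). Of 10 parietal endoderm markers Plat fell (-1.38, adjusted p = 0.0341; not called by edgeR or DESeq2, adjusted p = 0.136 and 0.0736, or with limma in 7 of the 10 fits that left out 1 embryo), with summed levels of 38637 to 68387 in WT and 46327 to 58765 in mutants. Without the library labelled mutant 4, Plat (-1.84) and Lama1 (-1.40) fell and Cited1 (0.54) rose. Of 10 markers of maternal decidua and blood, Prl8a2 (from 113 ± 113 to 2357 ± 2868; 4.03, SE 0.89) and Prl3c1 (3.75, SE 0.94) rose (5 rose with DESeq2), with summed levels of 2619 to 9456 in WT and 2261 to 15653 in mutants. No marker of these 4 lists was at 0 in all embryos, and their part in the lower levels of the regulators was not tested.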

How the data were processed

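RNA was extracted from single whole embryos, and amplified from 1.9 to 2 ng with the SMART-Seq v4 kit (12 cycles), per the labels' protocols. The chemistry of that kit records neither strand nor molecular identifiers. Per the submitters' processing notes, cutadapt 1.6, STAR 2.5.0a, HTSeq 0.5.3 and DESeq were used with build mm10. The deposited table holds 1 signal value per gene in each embryo, read counts over a DESeq size factor: 100% of values were whole multiples of 1 step per embryo within 0.01 reads, so reads were recovered for all 10 embryos. The listed genes had at least 15 reads in all, by a filter that is not stated. Genes with a mean of at least 10 scaled counts were tested as log2(scaled count + 1) with limma 3.58.1 (intensity trend, R 4.3.3). Benjamini-Hochberg adjustment and a threshold of 0.05 were used, and log2 fold changes are on this scale. The added count of 1 shrinks differences of low genes on it. For the 9 regulators that fell, these values were nonetheless larger falls than edgeR and DESeq2 gave with all embryos. The fit was tested on simulated data. Alternatives were edgeR 4.0.16 and DESeq2 1.42.0 on recovered reads, other pseudocounts, filters, scalings and weights, a replicate block, and leaving out each embryo. Coordinates and exon lengths come from GENCODE M21 (GRCm38, the assembly of mm10).

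The 10 regulators and the 14 companion lists were chosen with earlier results of these data known. Named genes were the 10 regulators, Axin1 and Axin2, the called genes of every list ranked by adjusted p (up to 4), called genes that went against most of their list, and the 5 genes most like the regulators. Any other list gene was picked with its values known and carries no SE. Some list genes are not reported here.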

Additional observations from a re-analysis of the deposited data

Results flagged for a closer look

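In 24 of the 118 groups of 5 embryos examined, for 59 genes, 1 embryo lay so far from the other 4 that its gap to the nearest, over the whole range, passed Dixon's critical value of 0.71. For independent normal values about 1 of 20 groups would pass it. Scaled counts cannot be negative and genes of the same embryos are not independent, so that rate is only a rough guide here. The library labelled mutant 4 was that embryo in 16 of the 24.

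Among the regulators it was the high mutant for Mesp2 (42.4 scaled counts), Ripply2 (25.3), Tcf15 (376), Meox1 (241), Foxc1 (519), Foxc2 (373), Pcdh8 (190.0) and Pcdh19 (301). It was also the high mutant for Dll3 (359), Dll1 (455), Tbx6 (315), Foxb1 (164), Foxd4 (27.3), Pcdh12 (561) and Plat (511), and the low mutant for Cubn (10444).

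Among WT embryos, WT 4 was low for Pcdh8 (371), WT 3 was high for Prl3c1 (22.7) and WT 2 was high for Hnf4a (2445). Mutant 3 was low for Aplnr (953) and high for Pcdh9 (5.60) and Prl3c1 (222). Mutant 5 was high for Prrx1 (566) and mutant 2 was low for Tbx4 (1079).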

How the results depend on the processing

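Over 22 alternatives, 6 to 9 of the regulators fell and 0 rose. Genes that fell numbered 1434 to 2741 and genes that rose 1071 to 2359; leaving out single embryos gave 1071 (without WT 5) to 2061 (without mutant 4) genes that rose. Companion genes outside the regulators that fell numbered 30 to 43, and those that rose 29 to 47. The median log2 fold change of all genes stayed within 0.03 of 0 under each alternative.

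Calls of regulators were lost for Ripply2, Foxc1 (edgeR and DESeq2) and Tcf15 (edgeR); Ripply2 was not tested at a minimum mean of 50. For the 9 regulators that fell, edgeR and DESeq2 with all embryos gave smaller fold changes than limma. The limma values are differences of mean log2(scaled count + 1), a different measure, and its part in the gap was not tested. Meox1, never called, turned negative at a pseudocount of 5 (-0.053), with array weights (-0.49) and without mutant 4 with edgeR (-1.55) and DESeq2 (-1.56), the last pair chosen after seeing the data; leaving out single embryos gave -0.78 to 0.52. Axin2, never called, turned positive with edgeR (0.020), DESeq2 (0.024), array weights (0.11) and without mutant 4 with edgeR (0.11) and DESeq2 (0.10), and leaving out single embryos gave -0.12 to 0.073. The pair Mesp1 and Mesp2 reversed at a pseudocount of 5 (-0.35). Msgn1 and Tcf15 reversed at a pseudocount of 5 (0.11) and with quantile normalisation (0.038), with -0.25 to 0.20 when single embryos were left out.

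Same-numbered WT and mutant embryos did not deviate together (correlations -0.08 to 0.08), so the numbers were not taken as pairs. With the replicate block 1817 genes fell, 1436 rose and 9 regulators fell, and of the named genes only Hes1 lost its call (adjusted p = 0.0524, limma). Depth limits Ripply2, Meox1 and Msgn1 most, with 131, 221 and 446 reads over the WT embryos.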
